A study of Drosophila melanogaster with 15 samples.

Results

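Knockdown of prp8 in the fly eye was compared with the driver control by RNA-Seq of whole heads, at the level of genes, splice junctions and exons. The members were the 5 libraries that the sample labels give as GMR>prp8 RNAi with a transgene marked GD (replicates 11 to 15) and the 5 that they give as GMR/+ (replicates 1 to 5), which makes 10 of the 15 libraries of the series. The other 5 libraries are GMR>prp4 RNAi (replicates 6 to 10). All flies were 3 to 5 days old, had been kept for at least 3 cycles of 12 h light and 12 h dark, and were collected at ZT12 by the labels (ZT0 is lights on). The study's text names this time in one place and an earlier one in another, so the time of day is not certain. GMR-Gal4 drives the RNAi transgene in the cells of the developing and adult eye. The RNA came from the whole head, so the brain, fat body, muscle and cuticle are measured together with the eye. The GMR/+ controls carried the driver and no RNAi transgene. In such bulk samples fewer cells of a type and less RNA per cell cannot be told apart.

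PRP8 is the largest protein of the U5 small nuclear ribonucleoprotein and sits at the catalytic centre of the spliceosome, where it holds the splice sites and the U5 and U6 RNAs while the intron is removed. It enters the spliceosome in the U4/U6.U5 tri-snRNP, a particle that PRP4 kinase, the target of the other knockdown of the series, also binds. The Drosophila compound eye is made of ommatidia in which photoreceptors R1 to R6 express the rhodopsin Rh1 (ninaE) and R7 and R8 express Rh3 to Rh6. Photoreceptors are surrounded by pigment cells and covered by a lens of cuticle-like proteins.

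The library labelled GMR>prp8 RNAi replicate 14 stood apart from the other 4. On the first principal component of log2 CPM (reads per 1e6 reads on genes), which held 25.9% of the variance, it lay at -15.2, the other 4 prp8 knockdown libraries between 3.63 and 7.54, the controls between 10.6 and 15.2 and the prp4 knockdown libraries between -16.2 and -11.9. Its Euclidean distance on the log2 CPM of 9115 genes was 34.5 to 37.6 to the other prp8 knockdown libraries and 26.4 to 36.0 to the prp4 knockdown libraries, whereas the other 4 prp8 knockdown libraries lay 24.1 to 29.5 from each other. Of the genes that differed between the other 4 and the prp4 knockdown libraries, 577 were among these 9115, and replicate 14 was nearer to the prp4 mean in 465 of them (80.6%). It was kept under its label. The main results are given with all 5 libraries and without replicate 14, and the origin of the library was not tested.

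**Figure D1:**
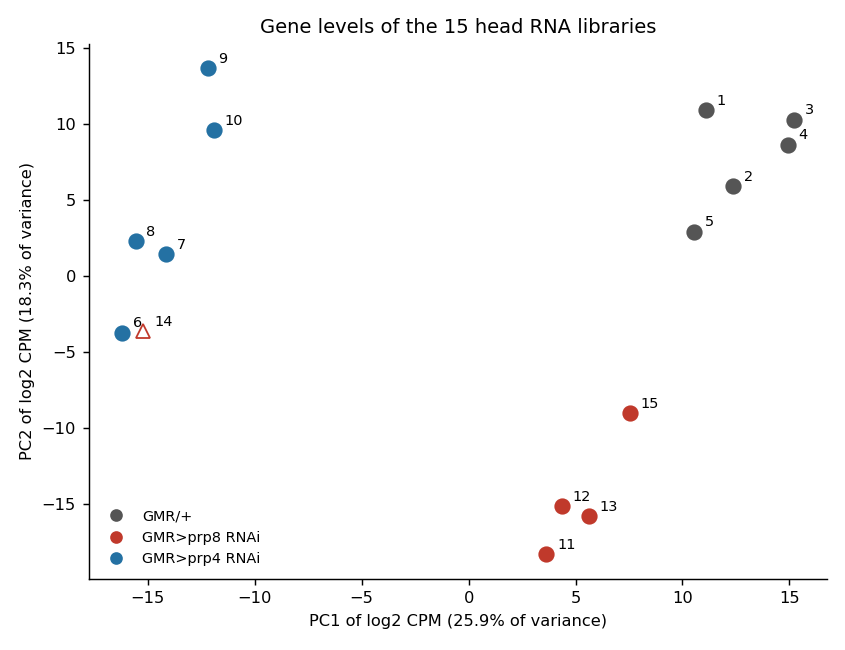
Principal components 1 and 2 of log2 CPM of the 15 libraries, one point per library with its replicate number, coloured by the genotype in the labels. The open triangle is GMR>prp8 RNAi replicate 14, which lies at -15.2 on the first component among the prp4 knockdown libraries (-16.2 to -11.9), while the other 4 prp8 knockdown libraries lie between 3.63 and 7.54.

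The authors had resampled the reads to equal depth, so depth was nearly the same in all libraries by construction. Reads counted on genes ranged from 11843869 to 11933407 in the controls and from 11753627 to 11979892 in the prp8 knockdown, and junction reads from 3129163 to 3244363 over both groups. Summed CPM of 8 photoreceptor markers was 88971 to 93984 in the controls and 77189 to 82852 in the prp8 knockdown without replicate 14, which had 90808. ninaE, with a control mean of 81554 CPM, made up most of this sum and passed in neither fit. Of these markers 3 fell with all 5 libraries and also without replicate 14 (Rh4, trp and inaD), and none was at 0. No member of the lists of 6 neuronal, 6 glial and 5 tested fat body markers passed the test in either fit. The 6 muscle markers summed to 4184 to 4394 CPM in the controls, 4675 to 5244 in the prp8 knockdown without replicate 14 and 4204 in replicate 14. Act88F was the only muscle marker to rise with all 5 libraries, and Act88F, wupA, Act57B and up rose without replicate 14. The 4 pigment cell markers summed to 695 to 891 CPM in the controls and 398 to 548 in the prp8 knockdown. Of these only Pdh fell, while santa-maria (0.09 and 0.08), wrapper (0.06 and 0.06) and ninaD (0.02 and 0.01) passed in neither fit. Of the 4 hemocyte markers Pxn fell in both fits. The part of these markers in the results below was not tested. Over all genes 2.37% fell and 2.36% rose with all 5 libraries, and 2.84% and 2.93% without replicate 14.

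The targeted gene was little changed in whole heads. Prp8 (FBgn0033688, 2R:12153956-12163300) had 1339, 1444, 1488, 1437 and 1545 reads in the controls and 1305, 1311, 1264, 1572 and 1304 in the prp8 knockdown. Replicate 14 was the highest of the 10 libraries and the other 4 knockdown libraries were below every control. Its log2 fold change was -0.11 (SE 0.06, adjusted p = 0.278) with all 5 and -0.16 (SE 0.05, adjusted p = 0.0552) without replicate 14, so neither passed the threshold of 0.05. Without replicate 14 and control replicate 1 the adjusted p was 0.0292. CG7028, which encodes PRP4, had 123 to 161 reads in the prp8 knockdown and 141 to 165 in the controls, and it passed in neither fit (adjusted p = 0.629 with all 5). The eye colour transporter gene w, the usual marker of transgenes, had 454 to 509 reads in the controls and 4270, 4222, 4613, 6629 and 4081 in the prp8 knockdown. All 5 knockdown libraries were far above the controls, and replicate 14 was the highest of them. The prp4 knockdown libraries had 5524 to 6464 reads. The fitted log2 fold change of w was 3.30 (SE 0.12) with all 5 and 3.16 (SE 0.06) without replicate 14.

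Of 9019 genes tested with all 5 libraries, 427 changed (4.73%), of which 213 were higher (2.36%) and 214 lower (2.37%) in the prp8 knockdown. Without replicate 14, 522 of 9055 changed (5.76%), 265 higher (2.93%) and 257 lower (2.84%). The fits shared 371 genes, all in the same direction, which is 86.9% of the calls with all 5 and 71.1% of those without replicate 14. Most of the changes were small: only 66 of the 427 genes and 85 of the 522 moved by 1 or more on the log2 scale. Leaving out each of the 10 libraries in turn gave 214 to 545 calls. The number was 214 without replicate 11, 232 without control replicate 3 or 4 and 268 without replicate 13. Without replicate 14 and a second library it was 264 (replicate 11), 323 (control replicate 3 or replicate 13) and 342 (control replicate 4).

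Arc1 and Osi6 were among the genes with the largest increases. Arc1 (FBgn0033926, 2R:14357625-14360599), a Gag-like capsid gene regulated by neuronal activity, had 2388, 2369, 2362, 2404 and 2443 reads in the controls and 11592, 11179, 9777, 4097 and 8585 in the prp8 knockdown. The controls were close together, and every knockdown library was above them, with replicate 14 the lowest. In the fits the log2 fold change of Arc1 was 1.91 (SE 0.21, adjusted p = 0.000170) with all 5 and 2.1 (SE 0.07, adjusted p = 7.79e-10) without replicate 14. Osi6 (FBgn0027527, 3R:6234406-6237483), a member of the Osiris family of insect transmembrane proteins, had 2280, 2128, 2033, 2212 and 1877 reads in the controls and 6578, 5588, 7546, 1633 and 6025 in the prp8 knockdown. Replicate 14 lay below every control and the other 4 lay at least at 5588. Osi6 was higher by 1.37 (SE 0.28, adjusted p = 0.0145) with all 5 and by 1.61 (SE 0.08, adjusted p = 8.15e-08) without replicate 14.

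Several genes with few reads in the controls were high in 4 knockdown libraries and low in replicate 14. Vm32E (FBgn0014076, 2L:11170865-11171967), which encodes an eggshell protein of the vitelline membrane and lies within Ca-beta, had 0, 1, 3, 1 and 3 reads in the controls and 135, 120, 163, 0 and 140 in the prp8 knockdown. The filter on low counts left it out of the fit with all 5, and without replicate 14 it entered the fit only through the libraries in which it was high, so no test is given. CG17267 (FBgn0038821, 3R:20737023-20739402) had 6, 16, 6, 15 and 10 reads in the controls and 104, 100, 103, 20 and 107 in the prp8 knockdown. Its fitted log2 fold change was 3.01 (SE 0.43) with all 5 and 3.27 (SE 0.19) without replicate 14. It passed the filter on low counts mainly through the knockdown libraries, so its p is not given. CG32165 had 49, 50, 55, 32 and 53 reads against 154, 147, 146, 33 and 173. Its log2 fold change was 1.44 with all 5 (adjusted p = 0.0218) and 1.69 without replicate 14 (adjusted p = 2.09e-06). limma gave an adjusted p of 0.139 with all 5. The edgeR call with all 5 was lost without control replicate 4, replicate 11 or replicate 13, where the adjusted p was 0.0636, 0.0618 and 0.0542. CG42383, which overlaps prom, had 16 to 26 reads in the controls, 73 to 84 in the 4 libraries and 23 in replicate 14. CG17005 was high in all 5 libraries, with 40 to 64 reads in the controls and 200, 196, 259, 437 and 265 in the prp8 knockdown. Acp65Aa, an adult cuticle protein gene, rose by 1.44 and 1.52 on the log2 scale. CG9676 and CG3088, of the trypsin-like serine protease family, rose by 1.19 and 1.18 with all 5 libraries, although the controls themselves ranged from 4686 to 14366 and from 7446 to 19979 reads.

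Among the genes that fell most, CG3397 (FBgn0037975, 3R:11982796-11984843) had 157, 162, 153, 164 and 124 reads in the controls and 6, 9, 11, 11 and 1 in the prp8 knockdown. The groups were far apart in all 5 libraries, and the fitted log2 fold change was -4.31 (SE 0.23) with all 5 and -4.47 (SE 0.25) without replicate 14. It passed the filter on low counts mainly through the controls, so its p is not given. Cpr72Ec (FBgn0036619, 3L:16365592-16367642), a protein of the corneal lens, had 1808, 1642, 1419, 1591 and 1499 reads in the controls and 101, 43, 97, 1013 and 163 in the prp8 knockdown. Replicate 14 held far more reads than the other knockdown libraries and was still below every control. For Cpr72Ec the log2 fold change was -2.52 (SE 0.58, adjusted p = 0.0236) with all 5 and -3.98 (SE 0.22, adjusted p = 1.2e-07) without replicate 14. The call with all 5 was lost without control replicate 3 or 4 or without replicate 11 or 13, where the adjusted p was 0.0504, 0.0547, 0.0702 and 0.0633. Dop1R1 (FBgn0011582, 3R:14165077-14215112), a dopamine receptor that raises cAMP, had 4015, 4402, 4346, 4022 and 4063 reads in the controls and 1379, 1203, 1311, 1317 and 1430 in the prp8 knockdown. All 5 knockdown libraries, replicate 14 included, were close together, and the log2 fold change was -1.66 (SE 0.06, adjusted p = 5.1e-10) with all 5 and -1.65 (SE 0.06, adjusted p = 7.8e-10) without replicate 14. In both fits it was the only one of 18 genes of dopamine signalling and synaptic receptors that changed, against 4.73% and 5.76% of all genes.

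Other genes fell by 1.26 to 1.67 on the log2 scale with all 5 libraries and by 1.35 to 2.02 without replicate 14. They were the neighbouring tetraspanin genes Tsp42En (-1.27 and -1.41) and Tsp42Eo (-1.5 and -1.76), whose ends overlap, CG32447 (-1.41 and -1.66), wac, a subunit of the augmin complex that branches microtubules (-1.34 and -1.58), the cuticle protein gene Ccp84Ag (-1.46 and -1.51), CG2121 (-1.26 and -1.35), scpr-C (-1.67 and -2.02) and se, an enzyme of red eye pigment synthesis (-1.29 and -1.48). Tsp42Eo had 372 to 497 reads in the controls and 128, 112, 105, 264 and 165 in the prp8 knockdown, and replicate 14 was again the highest knockdown library without reaching the controls. Tequila, a neurotrypsin-like protease, had 15128, 13707, 13919, 14348 and 13103 reads in the controls and 8430, 8113, 8699, 13677 and 7906 in the prp8 knockdown. Replicate 14 lay within the control range and the other 4 well below it. The log2 fold change of Tequila was -0.60 (SE 0.12, adjusted p = 0.0132) with all 5 and -0.76 (SE 0.06, adjusted p = 3.1e-06) without replicate 14.

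**Figure D2:**
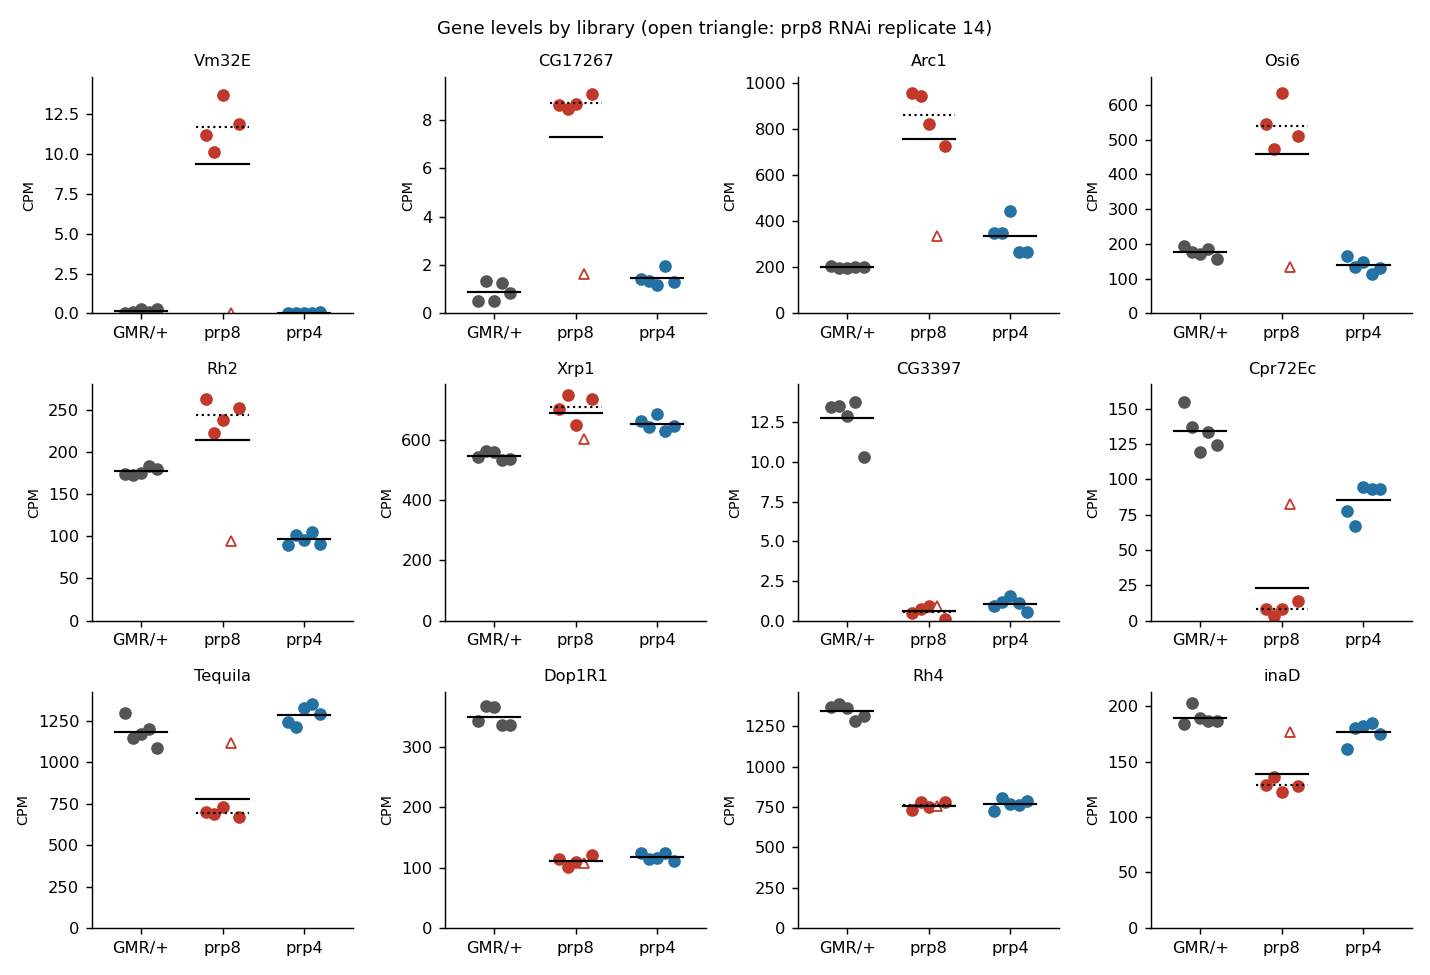
CPM of 12 genes in each library, after TMM normalization, for GMR/+, GMR>prp8 RNAi and GMR>prp4 RNAi, with 5 points a group. Solid lines are group means, the dotted line is the prp8 knockdown mean without replicate 14, and the open triangle is replicate 14, which lies with the controls or the prp4 knockdown for Vm32E (0 reads), CG17267 (20 reads), Osi6 (1633 reads) and Tequila (13677 reads) and with its group for Dop1R1 and Rh4.

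The light-sensing receptors did not move as one. Of 7 rhodopsin genes, 3 fell with all 5 libraries, and without replicate 14 the same 3 fell and Rh2 rose. Over all genes 2.37% and 2.84% fell in these fits, and 2.93% rose without replicate 14. The median log2 fold change of the list was -0.26 and -0.21, against -0.0013 and 0.0001 over all genes tested. Rh4, the ultraviolet opsin of a subset of R7 cells, had 16033, 16644, 16213, 15320 and 15807 reads in the controls and 8834, 9264, 8905, 9223 and 9230 in the prp8 knockdown. The groups were separate and narrow, with a log2 fold change of -0.83 (SE 0.05, adjusted p = 2.1e-07) with all 5 and -0.82 (SE 0.05, adjusted p = 3.5e-07) without replicate 14. Rh5, the blue opsin of R8 cells, fell by 0.40 and 0.39, and Rh7, an opsin also found in clock neurons, by 0.31 and 0.29. Rh2, the opsin of the ocelli, had 2032, 2070, 2076, 2183 and 2161 reads in the controls and 3179, 2634, 2833, 1161 and 2975 in the prp8 knockdown. The other 4 knockdown libraries were above every control, whereas replicate 14 was below them all and within the 1040 to 1224 of the prp4 knockdown. In the fit with all 5 the log2 fold change of Rh2 was 0.27 (SE 0.20, adjusted p = 0.473), and without replicate 14 it was 0.46 (SE 0.05, adjusted p = 0.000111). Rh3 (-0.26 and -0.17), Rh6 (0.10 and 0.15) and ninaE (-0.16 and -0.21) passed in neither fit. ninaE had 935600 to 989943 reads in the controls, 816690 to 864757 in the 4 knockdown libraries and 1001937 in replicate 14, so that the groups without replicate 14 did not overlap. Its adjusted p was 0.229 and 0.165 from edgeR, and 0.0430 from DESeq2 with all 5.

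Downstream of the rhodopsins, light activates a Gq protein, phospholipase C and the TRP channels, held together by the scaffold INAD. Of 19 phototransduction genes, 6 fell with all 5 libraries and 8 without replicate 14, against 2.37% and 2.84% of all genes, and none rose. Their median log2 fold change was -0.15 and -0.16. inaD had 2148, 2428, 2240, 2218 and 2241 reads in the controls and 1553, 1605, 1462, 2157 and 1515 in the prp8 knockdown. Replicate 14 lay within the control range and the other 4 lay below every control. The fitted change of inaD on the log2 scale was -0.46 (SE 0.08, adjusted p = 0.00811) with all 5 and -0.56 (SE 0.05, adjusted p = 7.6e-06) without replicate 14. The channel genes trp and trpl fell by 0.30 and 0.24 with all 5 and by 0.35 and 0.24 without replicate 14. rtp, which encodes an INAD-binding protein, fell by 0.27 and 0.35, CdsA, which serves the resynthesis of the phospholipase C substrate, by 0.22 and 0.24, and Gbeta76C, the G protein beta subunit, by 0.21 and 0.21. Galphaq and rdgA, the diacylglycerol kinase, passed only without replicate 14 (-0.18 and -0.22), and a difference between the fits was not tested. These calls were lost when 1 more library was left out, that of Galphaq with control replicates 2 and 3 and any other knockdown library (adjusted p up to 0.0979) and that of rdgA with control replicates 2, 4 and 5 and replicates 11, 12 and 13 (up to 0.106). With all 5 libraries, inaD and trp kept their calls whichever library was left out, and the adjusted p of Gbeta76C, trpl, rtp and CdsA reached 0.104, 0.0890, 0.0986 and 0.0582. CdsA lost its call only without replicate 11, Gbeta76C without any library but control replicate 4 and replicate 14, trpl without control replicates 2, 3 and 4 and replicates 11, 12 and 13, and rtp without any but replicate 14. norpA (-0.05 and -0.09) and ninaC (-0.06 and -0.03) did not pass.

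Of 13 genes of rhodopsin shut-off, folding and chromophore supply, Pdh alone changed, in both fits, where 4.73% and 5.76% of all genes did. Pdh, a retinol dehydrogenase of pigment cells, had 7626, 6514, 5739, 6669 and 5895 reads in the controls and 2380, 2066, 2979, 3832 and 3594 in the prp8 knockdown. The groups did not overlap, and the log2 fold change was -1.14 (SE 0.15, adjusted p = 0.000614) with all 5 and -1.24 (SE 0.14, adjusted p = 0.000110) without replicate 14. The arrestin genes Arr1 (-0.09 and -0.10) and Arr2 (-0.01 and -0.02) passed in neither fit. Of 9 rhabdomere and lens genes, Cpr72Ec fell in both fits and retinin, another corneal lens protein, only without replicate 14, by 0.77 (adjusted p = 0.0335). retinin had 25593, 16357, 28896, 42859 and 42123 reads in the prp8 knockdown, so replicate 15 as well as replicate 14 was near the control range of 43118 to 53664. Its call was lost without replicate 14 when control replicate 2, 3 or 4 or replicate 11 or 13 was also left out, with adjusted p up to 0.111. Of 22 genes of photoreceptor fate, oc rose (0.50 and 0.57) and dve fell (-0.27 and -0.32) in both fits, and salr fell only without replicate 14 (-0.25). oc, a homeodomain regulator of ocelli and of opsin choice, had 444, 567, 559, 692 and 706 reads in the controls and 979, 883, 853, 678 and 819 in the prp8 knockdown. Replicate 14 was within the control range, and the other 4 were above it. dve, which encodes a repressor of opsin genes, had 452 to 491 reads in the controls, 456 in replicate 14 and fewer than every control in the other 4. Both calls with all 5 were lost without replicate 11 or 13, oc also without control replicates 2 and 3 and replicate 12, and dve also without control replicate 4, with adjusted p up to 0.0809 and 0.0577. The call of salr was lost with control replicates 1, 2 and 3 or any other knockdown library left out too, with adjusted p up to 0.0814. None of 9 genes of the histamine cycle, the transmitter cycle of photoreceptors, passed in either fit.

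Of 22 tested genes of eye pigment synthesis and transport, 3 fell besides the rise of w with all 5 libraries, and 5 fell without replicate 14. The share of all genes that fell was 2.37% and 2.84%. pr, which makes the pteridine precursor, had 852 to 914 reads in the controls and 636, 616, 645, 673 and 708 in the prp8 knockdown, a log2 fold change of -0.46 (SE 0.05, adjusted p = 0.000210) with all 5 and -0.47 (SE 0.06, adjusted p = 0.000220) without replicate 14. All 5 knockdown libraries lay below the controls. Pu, the GTP cyclohydrolase that starts the pathway, fell by 0.41 and 0.39, and se by 1.29 and 1.48. bw, a partner of the White transporter, and ltd, a Rab protein of pigment granules, passed only without replicate 14 (-0.24 and -0.22). The call of bw was then lost without control replicate 2, 3 or 4 or replicate 11, 12 or 13 (adjusted p up to 0.116), and that of ltd without replicate 12 or 13 (up to 0.0737). The median of the list was -0.04 and -0.06.

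Of 11 heat shock genes tested, 5 rose in both fits and none fell, where 2.36% and 2.93% of all genes were higher. The other 6 passed in neither fit, and the median log2 fold change of the 11 was 0.42 and 0.39. Hsp70Bb, a stress-induced chaperone, had 3, 1, 2, 2 and 5 reads in the controls and 26, 26, 34, 39 and 19 in the prp8 knockdown, and all 5 libraries were above the controls. It passed the filter only through the knockdown libraries, so its p is not given, although it is among the 5 and in the median of the 11. Hsp68 had 225 to 242 reads in the controls and 712, 964, 784, 494 and 164 in the prp8 knockdown. Replicate 15 was below every control while the other 4 were above every control. Hsp68 had a log2 fold change of 1.42 (SE 0.32, adjusted p = 0.0211) with all 5 and 1.5 (SE 0.33, adjusted p = 0.0172) without replicate 14. The call with all 5 was lost without control replicate 3 or 4 or replicate 11 or 13, with adjusted p up to 0.0590. Hsp26 rose by 0.68 and 0.66, the co-chaperone gene DnaJ-1 by 0.61 and 0.65 and stv, a partner of Hsp70, by 0.26 and 0.27 in the fits with and without replicate 14, and replicate 15 was the lowest knockdown library of each. The copies of Hsp70 are near identical, so reads of one may be counted on another. From all 5, leaving out 1 library moved the adjusted p of DnaJ-1 up to 0.0809 and of stv up to 0.0890, in both cases without 1 of control replicates 2, 3 and 4 and replicates 11, 12 and 13, and for stv also control replicate 5.

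Of 28 tested genes of cell death and stress signalling, 4 rose with all 5 libraries and 3 without replicate 14, and none fell. The share of all genes that rose was 2.36% and 2.93%. Xrp1, a stress-induced transcription factor, had 6336 to 6764 reads in the controls and 8485, 8883, 7727, 7385 and 8712 in the prp8 knockdown, all above the controls. Its log2 fold change was 0.33 (SE 0.06, adjusted p = 0.00890) and 0.37 (SE 0.05, adjusted p = 0.000789). Gadd45, a stress-response gene, rose by 0.38 and 0.40, and CG10176, the tumour necrosis factor receptor Grindelwald, by 0.41 and 0.45. Thor, the translation inhibitor 4E-BP, rose by 0.60 with all 5 (adjusted p = 0.0348) and had an adjusted p of 0.0600 without replicate 14. Its controls ranged from 3048 to 5290 reads and overlapped the 4555 to 7476 of the knockdown. Thor lost its call without 7 of the 10 libraries and CG10176 without 6, with adjusted p up to 0.0957 and 0.0886. For Thor these were control replicates 3, 4 and 5 and replicates 11, 13, 14 and 15, and for CG10176 control replicates 1, 3 and 4 and replicates 11, 12 and 15. The pro-death genes rpr (0.69 and 0.65) and hid (0.25 and 0.17) did not pass. No tested gene passed among 18 antimicrobial peptide and immune recognition genes or 4 Turandot genes.

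Of 21 clock genes, per and tws rose in both fits and none fell, and the median was -0.02 and -0.02. Over all genes 2.36% and 2.93% rose. per, the transcriptional inhibitor of the clock, had 1315, 1495, 1562, 1476 and 1426 reads in the controls and 1676, 1669, 1684, 1733 and 1633 in the prp8 knockdown. The groups did not overlap, and the log2 fold change was 0.20 (SE 0.05, adjusted p = 0.0315) and 0.19 (SE 0.05, adjusted p = 0.0363). tws, a regulatory subunit of the phosphatase PP2A, rose by 0.25 and 0.26. The call of per with all 5 was lost without control replicates 2, 4 and 5 and replicates 11, 12 and 13, and that of tws without control replicate 3 or replicate 11, with adjusted p up to 0.0727 and 0.0584. tim, the partner of per, had 12957 to 14531 reads in the controls and 13982 to 16926 in the prp8 knockdown, and its log2 fold change of 0.11 and 0.06 did not pass (adjusted p = 0.317 and 0.541).

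Of 19 tri-snRNP genes, 2 rose in both fits, where 2.36% and 2.93% of all genes did. Another fell with all 5 libraries only, where 2.37% of all genes did. Prp3, a U4/U6 protein, and CG6686, the homologue of the tri-snRNP protein SART1, rose by 0.30 each with all 5 libraries. Without replicate 14 they rose by 0.32 and 0.30. hoip, a protein that binds the U4 RNA, fell by 0.78 with all 5 (adjusted p = 0.0451) and had an adjusted p of 0.0673 without replicate 14. The call of hoip with all 5 was lost without 7 of the 10, control replicates 2, 3 and 4 and replicates 11, 13, 14 and 15, with adjusted p up to 0.112. Prp3 had 543, 610, 621, 671 and 639 reads in the controls and 736, 777, 769, 758 and 795 in the prp8 knockdown, with no overlap. In the prp4 knockdown Prp3 and CG6686 also rose and hoip also fell. None of 33 splicing regulators and none of 10 genes of nonsense-mediated decay and the exon junction complex passed in either fit.

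Among other families, 2 of 5 tested Osiris genes changed in both fits. Osi6 rose, as above, and Osi2 fell from 1153 to 1304 reads in the controls to 673, 572, 627, 670 and 700, a log2 fold change of -0.93 in both fits (SE 0.06, adjusted p = 4.4e-07 with all 5 and 7.5e-07 without replicate 14). Of 28 tested cuticle protein genes, 1 rose and 5 fell with all 5 libraries, and 2 rose and 7 fell without replicate 14. This list does not hold Acp65Aa, which rose, as above. Cpr49Ag, among the 7, was called only without replicate 14, with 35 to 54 reads in the controls, 5 to 15 in the 4 libraries and 48 in replicate 14. It met the filter on low counts mainly through the controls, so its p is not given. Of 62 cytochrome P450 genes, 4 rose and 2 fell with all 5, and 3 rose and 2 fell without replicate 14. Over all genes 2.36% rose and 2.37% fell with all 5, and 2.93% and 2.84% without replicate 14. In both fits Cyp12d1-p (1.16 and 0.91), Cyp4p2 (0.58 and 0.64) and Cyp4p1 (0.26 and 0.25) rose and Cyp4c3 (-0.74 and -0.80) and Cyp6d4 (-0.40 and -0.46) fell. The call of Cyp6d4 was lost without any library but replicates 14 and 15, with adjusted p up to 0.127, and without replicate 14 those of Cyp4p1 and Cyp12d1-p were lost without replicate 11 (0.0501 and 0.0558). Of 21 odorant-binding protein genes tested with all 5, Obp49a and Obp56g rose by 0.73 and 1.09. Without replicate 14, 3 of 22 rose, Obp49a by 0.76, Obp56g by 1.18 and Obp19b by 0.81, the last a call lost without control replicate 2, 3 or 4 or replicate 11, 12 or 15 (adjusted p up to 0.108). Obp56g lost its call without control replicate 4 or replicate 11, with adjusted p up to 0.0643. Of 83 ribosomal protein genes tested, RpLP0-like alone fell with all 5 libraries (-0.50, adjusted p = 0.0491) and none passed without replicate 14, with medians of 0.03 and 0.05, where 4.73% and 5.76% of all genes changed. None of 31 proteasome genes passed in either fit, and of 29 glutathione S-transferase genes GstE1 rose without replicate 14 only (0.40, adjusted p = 0.0185, against 0.0534 with all 5).

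**Figure D3:**
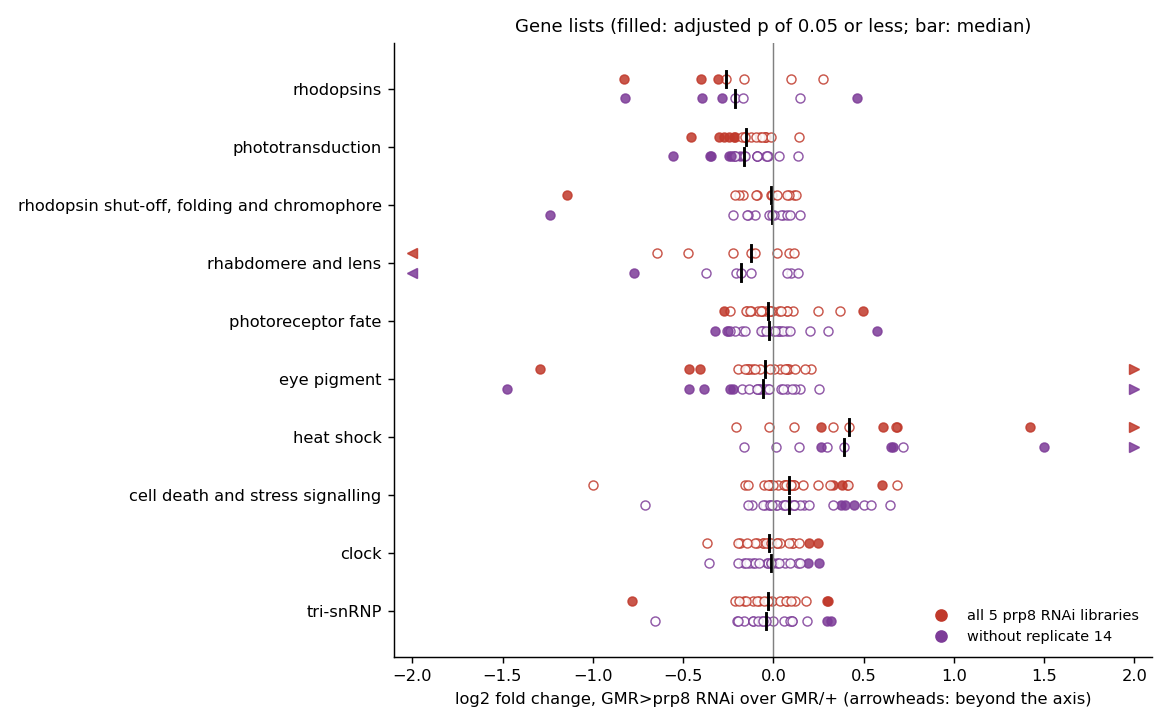
Log2 fold change of each tested member of 10 gene lists, GMR>prp8 RNAi over GMR/+, with all 5 knockdown libraries (upper row of each list) and without replicate 14 (lower row). Filled points passed an adjusted p of 0.05, black bars are medians and arrowheads lie beyond the axis (w at 3.30, Hsp70Bb at 3.40 and Cpr72Ec at -2.52 with all 5); phototransduction medians are -0.15 and -0.16 and heat shock medians 0.42 and 0.39.

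The prp8 and prp4 knockdowns were set against each other in a fit of all 15 libraries, because the same controls serve both. With replicate 14 kept, 215 of 9115 genes differed (2.36%), 90 higher (0.987%) and 125 lower (1.37%), and without it 579 of 9159 differed (6.32%), 234 higher (2.55%) and 345 lower (3.77%) in the prp8 knockdown. The count of 215 fell to 75 without replicate 11, 91 without replicate 13 and 124 or 126 without prp4 knockdown replicate 9 or 10, and it was 84 when only the 10 knockdown libraries were fitted. The prp4 knockdown alone changed 868 of 9012 genes against the controls (9.63%), 448 up (4.97%) and 420 down (4.66%). Osi6 was higher in the prp8 knockdown by 1.97 on the log2 scale (SE 0.10) without replicate 14, since it had 1306 to 1983 reads in the prp4 knockdown. Arc1 was higher by 1.37 (SE 0.12), Rh2 by 1.34 (SE 0.06), CG17267 by 2.58 (SE 0.18) and Gadd45 by 0.55 (SE 0.07). Cpr72Ec was lower by 3.32 (SE 0.22), CG32447 by 1.39 (SE 0.11), Tequila by 0.88 (SE 0.06) and inaD by 0.45 (SE 0.05). With replicate 14 kept, the differences of Osi6 (1.73), Arc1 (1.17), Rh2 (1.15), Gadd45 (0.52), CG32447 (-1.15), Tequila (-0.72) and inaD (-0.35) also passed. That of Cpr72Ec did not (-1.86, adjusted p = 0.0683). CG17267 then differed by 2.32, and as above no test is given for it. Prp8 itself was lower in the prp8 knockdown, by 0.25 (SE 0.04, adjusted p = 0.00157) without replicate 14 and by 0.21 (SE 0.05, adjusted p = 0.0492) with it. Other genes did not pass the test of the difference between the knockdowns, with -0.07 (SE 0.06) for Dop1R1, -0.01 (SE 0.05) for Rh4, -0.07 (SE 0.05) for Rh5 and -0.07 (SE 0.09) for Osi2 without replicate 14.

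Splice junctions were tested for use relative to the other junctions of their gene. With all 5 libraries 13 of 4464 genes changed (0.291%), and without replicate 14 26 of 4404 did (0.59%), 11 of them in both. The filter asked for 10 reads in 5 libraries, which removes a junction that is high only in the 4 knockdown libraries, and with 10 reads in 4 libraries, a setting chosen after the data were seen, 36 of 4546 genes changed without replicate 14 (0.792%). Of the 13, the leading junction was annotated in 10 and was used more in 8, and it lay on another gene in 1 of the 13 and in 5 of the 26. A junction that reached the filter only through the group in which it was high is described by its reads alone, with no test, although its gene is among these counts. At the level of the whole gene, 1 of the 13 was also changed, where 4.73% of all genes were.

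In CG43897 the junction 3L:9831441-9832195, an intron of 1 of 17 annotated transcripts within the coding region, had 5, 5, 8, 4 and 3 reads in the controls and 230, 192, 187, 189 and 201 in the prp8 knockdown. All 5 knockdown libraries were alike, and the prp4 knockdown had 65 to 192 reads. Of the reads on all junctions with the same start or the same end, it took 2.89% ± 1.29 (SD, n = 5) in the controls and 66.4% ± 1.07 (SD, n = 5) in the prp8 knockdown. Since no control reached 10 reads, no test is given for it. Another junction of the gene with nearly the same end, 3L:9830786-9832198, had 199, 281, 224, 281 and 254 reads in the controls and 160, 125, 140, 123 and 155 in the prp8 knockdown, with no overlap. Its log2 change relative to the gene was -0.57 without replicate 14, where it led the gene (adjusted p = 2.46e-05).

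In ninaE an unannotated junction, 3R:19887224-19887382, had 13, 14, 7, 14 and 12 reads in the controls and 57, 66, 60, 7 and 60 in the prp8 knockdown. The other 4 libraries were far above the controls, replicate 14 was at their lower end, and the prp4 knockdown had 2 to 5 reads. The junction has an end in common with an annotated intron of the gene and lies between its first and last coding base. The log2 change relative to the gene was 1.5 with all 5 (adjusted p = 2.95e-16) and 1.72 without replicate 14 (adjusted p = 1.4e-23). Against 816690 or more ninaE reads per library, such reads were rare.

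Unannotated junctions counted for Best2, a bestrophin chloride channel gene, and Arr2, an arrestin gene that ends light responses, had fewer reads in 4 knockdown libraries. The Arr2 junction also lies on Pex7, so its reads cannot be credited to Arr2 alone. The Best2 junction 3L:6251496-6251575 had 17, 18, 19, 32 and 22 reads in the controls, 0, 0, 0, 40 and 0 in the prp8 knockdown and 33 to 42 in the prp4 knockdown. The Arr2 junction 3L:8647602-8648228 had 13, 15, 13, 11 and 23 reads in the controls, 0, 0, 1, 33 and 0 in the prp8 knockdown and 17 to 25 in the prp4 knockdown. On both junctions the 4 libraries were at or next to 0 and replicate 14 was the highest of the 10. Apart from replicate 14 only controls reached 10 reads, so no test is given. The ends of neither junction match an annotated intron of the gene it was counted for. Single ends were not compared with the introns of other genes.

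Junction use also differed in genes of other functions. Slob, a binding partner of the Slowpoke potassium channel, had 13, 20, 18, 17 and 10 reads on the annotated junction 2L:7649201-7649303 in the controls and 0, 2, 3, 5 and 2 in the prp8 knockdown. The groups did not overlap, and only controls reached 10 reads. Ace, the acetylcholinesterase gene, had 26 to 39 reads on the junction 3R:13246655-13258302 outside its coding region in the controls and 60, 60, 61, 53 and 47 in the prp8 knockdown, with a log2 change relative to the gene of 0.68 with all 5 (adjusted p = 0.000306) and 0.71 without replicate 14 (adjusted p = 0.000422). Rtnl1, a reticulon gene of the endoplasmic reticulum, had 5 to 11 reads on a junction of 1 of 11 transcripts in the controls and 29, 18, 26, 15 and 26 in the prp8 knockdown, and it passed the filter mainly through the knockdown. RpS4 had 152 to 219 reads on 3L:13042015-13042109 in the controls and 281 to 371 in the prp8 knockdown, a relative change of 0.53 with all 5 (adjusted p = 1.1e-05) and 0.55 without replicate 14 (adjusted p = 8.0e-06). With all 5 Eaat2 (0.42), CAP (-0.44), CG7888 (-0.45), Pkn (0.36) and mim (-0.52) passed with adjusted p between 0.0212 and 0.0347, and without replicate 14 their genes passed with 0.000422 to 0.0151 and these junctions had 0.48, -0.49, -0.58, 0.35 and -0.58. With all 5 each lost its call when certain libraries were left out, with adjusted p up to 0.572. These were control replicates 2, 4 and 5 and replicates 12, 13 and 15 for Eaat2, control replicates 3, 4 and 5 and replicates 11, 12 and 13 for CAP, any but control replicate 4 and replicate 14 for CG7888, any but replicate 14 for Pkn, and any but control replicate 3 and replicates 14 and 15 for mim. Ggamma30A, the G protein gamma subunit of phototransduction, had 3 to 9 reads on an unannotated junction in the controls and 19 to 26 in the prp8 knockdown, where alone it reached 10 reads.

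With 10 reads asked for in 4 libraries, junctions present only in the 4 prp8 knockdown libraries came into the test only because they were high there, so their reads are given as a description. In CG32165 the annotated junction 3L:16597035-16597093 had 0 reads in every control, every prp4 knockdown library and replicate 14, and 10, 16, 25 and 17 in the other 4. In Galt, a galactose metabolism gene, an unannotated junction had 0 reads in the same 11 libraries and 13, 11, 17 and 11 in the 4. An unannotated tim junction, 2L:3502127-3502315, had 4 to 7 reads in the controls, 18, 24, 23, 5 and 26 in the prp8 knockdown and 6 to 9 in the prp4 knockdown. In 8 of 10 tim transcripts an annotated intron shares 1 of its ends. The oc junction X:8642868-8643102 had 1 to 5 reads in the controls and 23, 24, 19, 9 and 22 in the prp8 knockdown.

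Exon use changed in 45 of 7491 genes with all 5 libraries (0.601%) and in 46 of 7454 without replicate 14 (0.617%), 35 of them in both. With the looser filter 54 of 7532 changed without replicate 14 (0.717%). At the level of the whole gene, 11 of the 45 were also changed, where 4.73% of all genes were. An exon that reached the filter only through the group in which it was high is described by its reads alone. Its gene may still be among these counts. The leading exon of 15 of the 45 genes lay on another gene, where reads of both genes cannot be told apart because the sources used here do not say whether the counting used strand. These included an exon of CG32795 that lies on w (38 to 62 reads in the controls, 657 to 1096 in the prp8 knockdown), one of CG31211 on Hsp70Aa, one of GstD9 on GstD1, and one of prom on CG42383. The exon of CG43729 that lies on the antimicrobial gene Mtk had 3036 reads in control replicate 1 and 77 to 236 in the other controls, and 77 to 126 in the prp8 knockdown, so that 1 control library held most of the control reads. Its adjusted p was 5.0e-24 with all 5, and it reached 0.0254 with a library left out.

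Among the exons on no other gene was that of Tequila at 3L:9076319-9076795, an inner coding exon of 3 of 4 transcripts. It had 34, 48, 27, 38 and 42 reads in the controls and 199, 193, 212, 37 and 192 in the prp8 knockdown, while the reads of the whole gene fell. Replicate 14 was among the controls and the other 4 were far above them. The log2 change relative to the gene was 1.89 (adjusted p = 1.2e-22) with all 5 and 2.18 (adjusted p = 4.8e-72) without replicate 14. The junction that follows this exon, 3L:9076796-9076857, had 4, 8, 4, 8 and 7 reads in the controls and 36, 45, 39, 7 and 38 in the prp8 knockdown, and it reached 10 reads only in these 4.

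In oc, an exon outside the coding region at X:8643103-8643478 had 5, 6, 5, 6 and 5 reads in the controls and 48, 42, 34, 17 and 48 in the prp8 knockdown. Replicate 14 lay between the controls and the other 4, at the level of the prp4 knockdown (12 to 17 reads). No control reached 10 reads, so no test is given. The exon starts 1 base after the oc junction above. Eaat2, a glutamate-family transporter, had 192 to 254 reads on an exon outside the coding region, 2L:743338-743661, in the controls and 413, 508, 393, 341 and 492 in the prp8 knockdown, with no overlap (0.55 with all 5, adjusted p = 1.3e-09, and 0.61 without replicate 14, adjusted p = 2.4e-12). Pde1c, a calcium-regulated phosphodiesterase, had 19 to 47 reads on the inner coding exon 2L:11832725-11832787 in the controls and 110 to 121 in the 4 other prp8 knockdown libraries and 72 in replicate 14 (0.70, adjusted p = 5.3e-05, and 0.76, adjusted p = 1.5e-06). mgl, a megalin-like lipoprotein receptor, had 60 to 86 reads on X:9471999-9473266 in the controls and 127 to 201 in the prp8 knockdown (0.56, adjusted p = 6.8e-05, and 0.59, adjusted p = 3.5e-05). Exons used less were those of Desat1, a fatty acid desaturase, at 3R:12444959-12445107 (194 to 269 reads in the controls and 89 to 127 in the knockdown, -0.72 and -0.75) and of CG3800 at 2R:22936413-22936849 (269 to 437 against 137 to 232, -0.66 and -0.71).

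**Figure D4:**
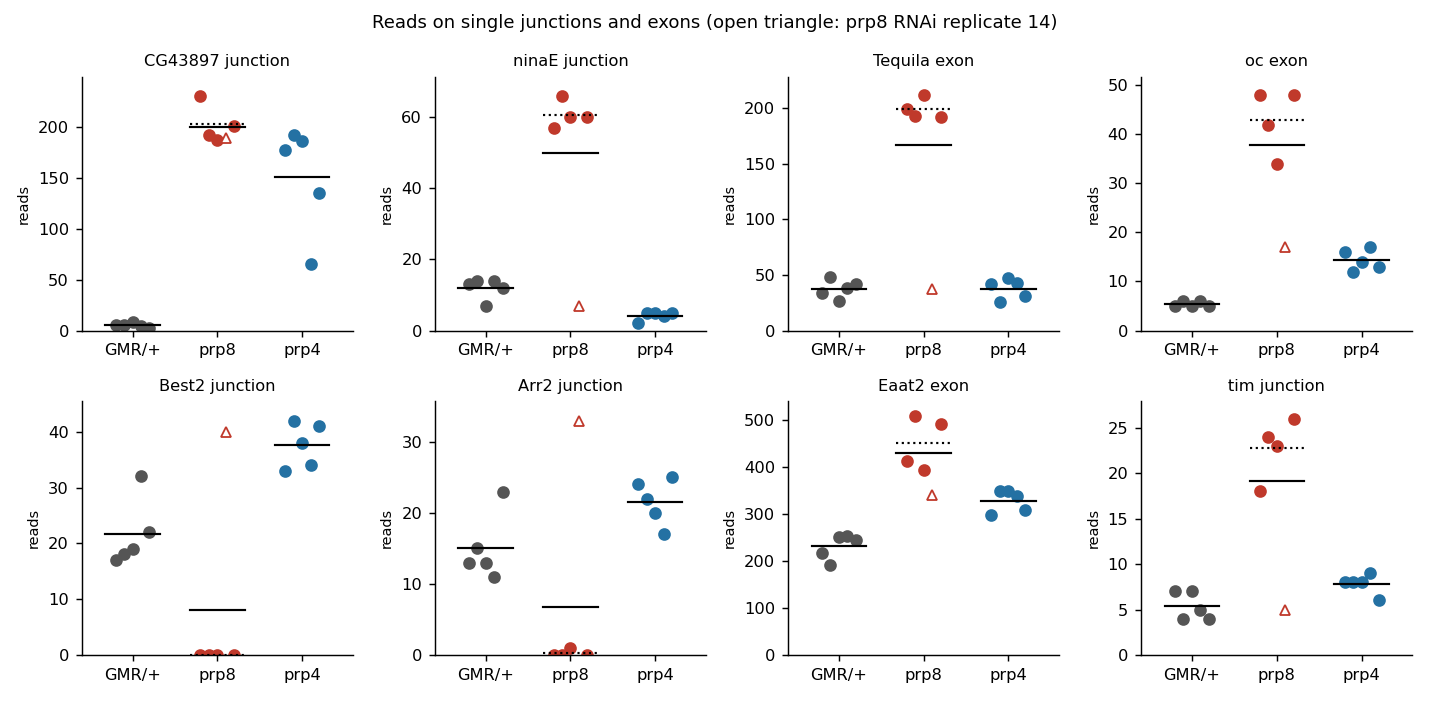
Reads on single junctions and exons in each library, for GMR/+, GMR>prp8 RNAi and GMR>prp4 RNAi, with 5 points a group, solid lines at the group means and a dotted line at the prp8 knockdown mean without replicate 14 (open triangle). The CG43897 junction is high in all 5 prp8 knockdown libraries (187 to 230 reads), the ninaE, Tequila and tim features in the 4 other than replicate 14, and the Best2 and Arr2 junctions are at 0 or 1 read in those 4.

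Splicing of the tim introns and other events that had been examined in the prp4 knockdown was also measured. The tim-tiny intron (2L:3499764-3500000) was set against the constitutive intron just upstream (ctrl). Both were counted by junction reads, in which the intron is spliced out. A lower ratio thus stands for less splicing of tim-tiny relative to ctrl. The study reported more reads across tim-tiny in the prp4 knockdown and took them as retention, so its measure runs the other way. Reads of the retained intron were not measured here. The controls had 0.378, 0.308, 0.411, 0.386 and 0.308 tim-tiny reads per ctrl read, and the prp8 knockdown libraries 0.244, 0.244, 0.273, 0.260 and 0.295. Every knockdown library, replicate 14 included, was below every control. The mean was 0.358 ± 0.047 (SD, n = 5) in the controls and 0.263 ± 0.022 (SD, n = 5) in the prp8 knockdown, with p = 0.00794 by an exact two-sided permutation test, the smallest that 5 against 5 can give, and 0.0397 after adjustment over 5 events. Without replicate 14 the mean was 0.264 ± 0.025 (SD, n = 4), with p = 0.0238 and 0.119 after adjustment by the exact permutation test. The adjusted p also missed the threshold when any other knockdown library was left out. The counts behind the ratio were 103 to 128 reads on tim-tiny and 304 to 416 on ctrl in the controls, and 90 to 108 and 366 to 393 in the prp8 knockdown. In the prp4 knockdown the ratio was 0.252 ± 0.047 (SD, n = 5).

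None of the other 4 events passed the exact permutation test. The ratio of tim-cold, the last intron of tim, to ctrl was 0.686 ± 0.068 (SD, n = 5) in the controls and 0.659 ± 0.068 (SD, n = 5) in the prp8 knockdown, and the share of reads that included the trol exon was 30.1% ± 18.6 and 33.7% ± 8.1 (SD, n = 5 each). Spliced reads of dmip8, the last intron of per, were 0.194 ± 0.104 and 0.174 ± 0.073 per read of the intron before it (SD, n = 5 each), on 2 to 15 reads per library. For Npc1a, a sterol transporter, the share of reads from the upstream 5′ splice site was 16.4% to 21.6% in the controls, 14.7% to 19.3% in the 4 knockdown libraries and 36.8% in replicate 14, and 35.3% to 39.7% in the prp4 knockdown. The adjusted p of these 4 events was 0.897 with all 5 and 0.516 to 0.905 without replicate 14.

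Splicing over all genes was close to that of the controls. Junction reads per gene read were 0.2707 ± 0.0027 in the controls and 0.2679 ± 0.0014 in the prp8 knockdown (SD, n = 5 each, p = 0.0873 by the exact permutation test), and 0.151 was the p without replicate 14. Without control replicate 1 the p was 0.0238, and without the 100 genes with the most reads it was 0.722. The share of junction reads outside annotated introns was 3.87% ± 0.10 and 3.79% ± 0.04 (SD, n = 5 each, exact permutation p = 0.127), and 0.0159 was the p without control replicate 5. Introns of up to 100 bp took 51.6% ± 0.34 and 51.9% ± 0.40 of the reads on annotated introns (SD, n = 5 each, exact permutation p = 0.393 adjusted over 3 length classes).

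**Figure D5:**
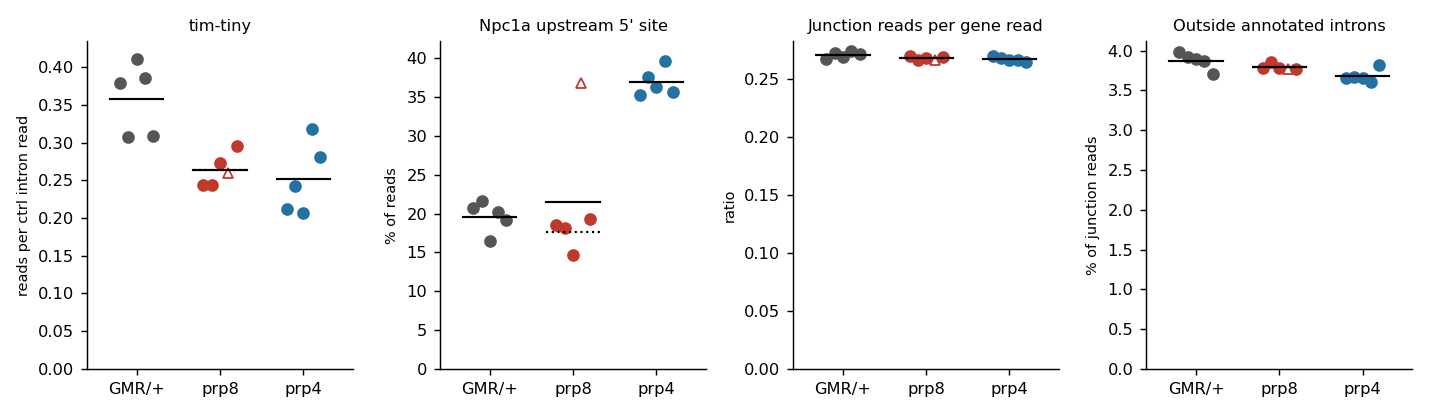
Splicing ratios in each library, for GMR/+, GMR>prp8 RNAi and GMR>prp4 RNAi, with 5 points a group, solid lines at the means and a dotted line at the prp8 knockdown mean without replicate 14 (open triangle). All 5 prp8 knockdown libraries are below the controls for spliced tim-tiny reads per ctrl read (0.244 to 0.295 against 0.308 to 0.411). Of them, replicate 14 alone is near the prp4 knockdown for Npc1a (36.8%).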

How the data were processed

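RNA-Seq reads of fly heads (SENSE mRNA-Seq kit) were aligned by the authors with STAR 2.5.3a to BDGP6, cleared of ribosomal and mitochondrial reads and resampled to equal depth with PORT. The authors deposited whole-number counts of reads on genes, exons and junctions, with no further scaling. Exon counts sum to 28597628 in every library. Resampling removes depth differences but not differences in composition. The tables hold 2 columns of per-sample values that match no sample and were not used. No column of the authors' comparisons was used. Genes and introns were placed with the Ensembl 115 annotation. The labels do not say whether the libraries came from separate cultures of flies, so p-values measure the spread between these libraries.

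Gene counts were tested with edgeR 4.0.16 in R 4.3.3 (filterByExpr, TMM, quasi-likelihood test, Benjamini-Hochberg, threshold 0.05). Junction and exon use were tested with diffSpliceDGE (Simes p per gene, at least 10 counts in 5 libraries). Ratios were compared by exact permutation tests. SE is the standard error of the log2 fold change. Alternatives used limma 3.58.1, DESeq2 1.42.0, other filters and scalings and leaving out each library. Those that combine the omission of replicate 14 with another change, and the minimum of 4 libraries, were chosen after the data were seen. On simulated gene counts for 200 changed genes of 9007, edgeR recovered 197 with 10 false calls. For junction use it recovered 154 of 193 changed genes among 3210, with 3 false calls, and for exon use 176 of 199 among 6277, with 4. These counts hold for the simulated data alone. The share of changed genes that the tests miss in the real libraries was not tested. Tables were read with pandas 2.3.3 and numpy 2.4.6, and plots made in matplotlib 3.10.9.

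Named are the knockdown targets and w, then for either fit the 10 called genes that rose most and the 10 that fell most, given no overlap of the groups and a mean of 50 or more counts in the higher group, then the 10 genes of lowest p per test of junction or exon use, the list members that passed with up to 4 others a list, and the genes of the splice events. Some of these are only summarised. Junctions found with the minimum of 4 libraries, and the muscle and hemocyte markers, fall outside this rule and were chosen after their values were seen. The members and lists were chosen with earlier results of these data known.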

Additional observations from a re-analysis of the deposited data

Results flagged for a closer look

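In 44 of 250 groups of 5 libraries, 1 library stood apart, so that its gap to the nearest other library, divided by the range of the group, was above 0.71, Dixon's 95% critical value for 5 samples. Chance flags about 1 in 20 groups that are picked without regard to their values. Many of the groups here were named for their values in these libraries, partly in the fit without replicate 14. That rate is therefore no measure for the counts that follow. Of the 44, replicate 14 was the library in 28 and a control in 14. What sets these libraries apart was not tested.

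For gene levels in CPM, replicate 14 stood apart in Prp8 (0.793), w (0.784), Vm32E (0.741), CG17267 (0.919), CG32165 (0.802), CG42383 (0.848), Cpr72Ec (0.872), Cpr49Ag (0.766), Tequila (0.862), Rh2 (0.760), Rh6 (0.715), inaD (0.760), rdgA (0.738), dve (0.824) and salr (0.944), and also in its reads counted on genes (0.71). On junctions it stood apart in ninaE (0.847), mim (0.811), Best2 (1.0), Arr2 (0.970), CG43078 (0.727), Pde1c (0.812) and Tequila (0.763), on exons in Tequila (0.886), CG32795 (0.777), scpr-C (0.769) and Pde1c (0.776), and in the Npc1a share (0.793).

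Among the controls, replicate 1 stood apart on the CG7888 junction (0.743) and the exons of CG43729 (0.946) and Pde1c (0.714), replicate 2 on the Eaat2 junction (0.875), the prom exon (0.733) and in the level of inaD (0.741), and replicate 3 on the junctions of ninaE (0.714) and Ggamma30A (0.833). Control replicate 4 did so in the levels of CG32165 (0.764), ninaE (0.812) and rtp (0.8003) and on the scpr-C exon (0.833), and control replicate 5 in the levels of CG3397 (0.750) and pr (0.729). Replicate 12 of the prp8 knockdown stood apart in the share of junction reads outside annotated introns (0.759) and replicate 15 in the level of Hsp26 (0.822).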

How the results depend on the processing

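With all 5 libraries the count of changed genes was 436 with limma, 624 with DESeq2, 431 with RLE size factors, 483 without a filter, 424 with 10 counts in 5 libraries, 523 in a fit of 15 libraries and 66 at a log2 fold change of 1. Scaling by library size gave 475 (283 higher, 192 lower), and 514 (293 higher, 221 lower) without replicate 14. Leaving out 1 library gave 214 to 545 genes, and 264 to 620 when replicate 14 was already left out. For junction use the count was 26 with limma, 22 with the gene-level F test, 5 at 50 counts, 6 to 26 with each library left out, and 15 to 21 without replicate 14 and another. For exon use it was 102 with the F test, 28 at 50 counts, 26 to 46 with each library left out, and 33 to 51 without replicate 14 and another. The knockdowns differed in 84 genes with only their 10 libraries fitted, and in 75 to 579 with each of 15 left out. The difference in junction reads per gene read was -0.00380 to -0.00209 with each library left out, and that in the share of junction reads outside annotated introns -0.123 to -0.0548 percentage points. The number of splice events past the threshold was 0 to 1, and 0 when any knockdown library was left out. For tim-tiny reads per ctrl read the difference was -0.108 to -0.0818 with each library left out, -0.0622 against the mean of the other shared tim introns and -0.0575 against the next downstream.

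Of 58 named genes called with all 5 libraries 39 were past the threshold under every alternative, 19 were not under at least 1, and none changed direction. Without replicate 14 these numbers were 66, 48 and 18. No paired analysis was possible because no replicate number occurs in more than 1 group of the labels. Some junctions rest on few reads: those of Best2, Arr2 and Slob had at most 40 reads in any library of the 10.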
